A study of Mus musculus with 4 samples.

Results

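Mmp7, Gabrp, Psca, Olfm4, Muc4, Prom1, Sema3c, Them6 and Ephb2 are 9 of the 27998 genes counted in single kidney cells of BAC-CluGFP mice, a transgenic line whose GFP reporter sits in a bacterial artificial chromosome carrying the clusterin gene. They were picked because an earlier look at these counts had them leading the late cells that express Slc12a1, the sodium-potassium-chloride cotransporter NKCC2 that defines the thick ascending limb of the loop of Henle, so their rise in those cells after injury is a description of the choice and was not tested. GFP-positive cells were sorted by flow cytometry from enzymatically dissociated kidneys and made into 4 libraries of 10x Genomics 3′ v3.1 chemistry. The 4 groups were untreated kidney and kidney collected 2, 7 or 30 days after 35 min of ischemia-reperfusion injury (IRI), a temporary arrest of the blood supply. All 4 groups carry the same BAC-CluGFP transgene, and every library is limited to cells sorted as GFP-positive. No GFP row was counted, so the state of the reporter could not be checked in the sorted cells. There was 1 library per group, and the labels give neither the number of animals behind a library nor their age or sex. Without replicate libraries no difference between groups was tested, and the 95% intervals below are exact and cover counting error only, neither the spread between animals nor that between cells.

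After removal of cells with few UMIs or genes, of cells over 50% mitochondrial UMIs and of predicted doublets, 23140 of 27230 cell barcodes were kept, between 1920 at day 7 and 8310 at day 2. The median kept cell had 5153 UMIs (unique molecules) in the untreated library and 23368 at day 7, and the least deep barcode of the day 7 library had 18362 UMIs, against 2335 to 5976 in the other 3. The untreated library stood apart in its mitochondrial share, with a median of 14.5% against 2.82% to 3.68% in the injured ones, and 2740 of its barcodes were over the mitochondrial limit. Between 4 and 20 barcodes were common to any pair of libraries, 74 barcodes in all. Cells were sorted into 19 classes by marker genes, and the class held by Slc12a1 alone had 445 untreated cells, 357 of day 2, 54 of day 7 and 240 of day 30. These are called Slc12a1-gated cells, and levels are given as CPM, the gene's UMIs per 1000000 UMIs of the summed class. A gene counts as measured in a comparison if it reached 20 CPM in either set with at least 20 UMIs together, and as higher or lower if the levels differed at least 2-fold with an interval of the ratio that leaves out 1. Levels of different genes are not compared with each other, since they were not scaled by length.

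Most of the 9 genes encode secreted proteins or proteins of the cell surface. Mmp7 is matrilysin, a secreted metalloprotease that cuts E-cadherin, syndecan-1 and pro-defensins and is long known from injured and fibrotic kidney tubules and from Wnt-driven intestinal tumours; Olfm4 is a secreted glycoprotein best known from intestinal stem cells, and Sema3c is a secreted semaphorin that signals through neuropilins and plexins. Psca is a small lipid-anchored protein of the Ly6 family, Muc4 a membrane mucin that binds ErbB2, Prom1 (CD133) a protein of membrane protrusions used to mark tubule progenitor-type cells, Gabrp the pi subunit of the GABA-A receptor found in epithelia outside the brain, and Ephb2 a receptor tyrosine kinase for B-type ephrins and a Wnt target in the gut. Them6 belongs to the thioesterase superfamily.

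In mm10 coordinates Mmp7 lies at chr9:7692090-7699585, Gabrp at chr11:33550781-33578959, Olfm4 at chr14:79984081-80023139, Muc4 at chr16:32735886-32782391, Prom1 at chr5:43993620-44102032, Sema3c at chr5:17574281-17730268 and Ephb2 at chr4:136647539-136835988. Psca at chr15:74714839-74717069 and Them6 at chr15:74721204-74724639 are neighbours on the same strand with 4134 bases between them. Olfm4 overlaps the counted long non-coding RNA Gm6999 on its own strand, so reads could be split between the pair, and Mmp7, Muc4, Prom1 and Them6 overlap a counted gene on the other strand (AV064505, Muc20, Gm16401 and Slurp1).

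Since the members were read out together, the promoters of those that could be matched were searched for the motifs of the factor families known to act on the matrilysin promoter. RefSeq promoter windows (GRCm38.p6) were matched for 7 of the 9, not for Psca and Them6, and the 250 bases before each start were searched on both strands for AP-1 (TGANTCA), TCF/LEF (CTTTGNT), ETS of the PEA3 type (AGGAAG) and the TATA box (TATAAA). The RefSeq starts of Olfm4, Sema3c and Prom1 lay 16221, 535 and 296 bases downstream of the gene starts given above. Their windows therefore lie inside those gene positions, while the other starts lay within 24 bases of the gene start. The 3 windows below are shown because they hold the AP-1 and TCF/LEF matches found among the members. They are printed 5′ to 3′ on the strand of the gene, with AP-1, TCF/LEF and ETS matches in capitals, for Mmp7 (chr9:7691840-7692089, plus strand), Gabrp (chr11:33578958-33579207, minus strand) and Prom1 (chr5:44101737-44101986, minus strand).
Mmp7: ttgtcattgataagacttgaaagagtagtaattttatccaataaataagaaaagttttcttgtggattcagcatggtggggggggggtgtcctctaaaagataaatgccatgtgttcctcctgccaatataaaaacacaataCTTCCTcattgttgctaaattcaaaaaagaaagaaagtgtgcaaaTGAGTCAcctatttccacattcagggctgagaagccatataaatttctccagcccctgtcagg
Gabrp: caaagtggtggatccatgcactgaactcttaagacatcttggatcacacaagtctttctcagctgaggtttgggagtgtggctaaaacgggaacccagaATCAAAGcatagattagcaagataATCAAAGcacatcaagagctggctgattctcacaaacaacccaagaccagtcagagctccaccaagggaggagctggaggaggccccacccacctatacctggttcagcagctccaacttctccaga
Prom1: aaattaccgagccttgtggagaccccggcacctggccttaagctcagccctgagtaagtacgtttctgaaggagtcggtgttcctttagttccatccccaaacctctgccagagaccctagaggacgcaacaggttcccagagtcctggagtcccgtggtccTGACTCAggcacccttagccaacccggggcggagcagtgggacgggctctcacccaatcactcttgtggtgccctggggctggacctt
In the Mmp7 window an AP-1 match began 63 bases before the start and an ETS match, on the opposite strand, 108 bases before it, with TATA boxes at 26 and 123 bases. The Gabrp window held a pair of TCF/LEF matches on the opposite strand, at 151 and 127 bases. The Prom1 window held 1 AP-1 match, at 88 bases. AP-1 was found in 2 of the 7 windows against 6.75% of all 32851 windows of that length, TCF/LEF in 1 against 16.0%, ETS in 2 (Mmp7 and Olfm4) against 29.5%, and the TATA box in 2 (Mmp7 and Muc4) against 12.4%. A match is a string of letters and not a bound site, and the motifs do not overlap one another in these windows.

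The data went against the label of thick limb genes for the gene that heads it. In Slc12a1-gated cells Mmp7 had 0 UMIs without injury, 3.00 CPM at day 2 (16 UMIs), again 0 UMIs at day 7, and 10.99 CPM at day 30 (28 UMIs, interval 7.30 to 15.9). Macrophage-gated cells, which should lack the gene, had 16.9 CPM in the same day 30 library, so the level in the gated cells was at or below the background. Other gates put it above that value: 27.3 CPM with the gate minimum doubled, 27.0 with cells of mixed gate kept and 33.8 with a gate of 4 thick limb genes. With each cell thinned to 2000 UMIs, 2.50% of the 240 gated cells held an Mmp7 UMI (0.923% to 5.36%) against 1.41% of 1768 macrophage-gated cells, at median depths of 8856 and 8926.5 UMIs. Without thinning the shares were 6.25% and 5.71%. With no UMI in 4456525, the untreated gated cells could have had up to 0.673 CPM, the level of 3 UMIs, and the gene was under the minimum for a call at day 30.

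The highest Mmp7 level at day 30 was instead in cells that passed no class marker at all. These ungated cells numbered 559 at day 30, 175 at day 7, 196 at day 2 and 10 in the untreated library, too few there to describe. Their Mmp7 level at day 30 was 188.9 CPM (178.2 to 200.0), 17.2-fold that of the gated cells (11.8 to 26.0), and they held 44.7% of all Mmp7 UMIs of the library. The next levels at day 30 were 72.0 CPM in cells gated by injured proximal tubule markers, 46.8 in principal cells and 22.9 in urothelium, each with an interval apart from the one above it. In the untreated library Mmp7 was high in the urothelium alone, the lining of the pelvis, at 154.5 CPM with 87.1% of the library's Mmp7 UMIs.

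Mmp7 came in few cells with many molecules each. At day 30, 120 of the 559 ungated cells held a UMI and the 10 richest held 44.0% of the molecules, and without those 10 the level was 107.7 CPM. At day 2 the ungated level of 37.9 CPM rested on 2 cells, which held 86 of the 90 UMIs, and at day 7 a single cell held 76.5% of 34 UMIs. Even in untreated urothelium, 16 of 155 cells held all 269 UMIs and 1 of them held 46.1%. Counting intervals treat molecules as independent and are too narrow for a gene spread in this way, and the day 2 and day 7 values of Mmp7 describe a handful of cells.

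As a pool the ungated cells were epithelial by Epcam and Krt8, and by definition each fell below the limits of every class gate. Whether they were a mixture was not tested. At day 30 they had 951.4 CPM of Epcam and 829.8 of Krt8, 43.4 of Slc12a1 against 4534 in the gated cells, 292.2 of Umod (uromodulin, the main secreted protein of the thick limb) against 5304, and 936.2 of Vcam1 against 89.1. Of 21 fixed thick limb identity genes 20 were measured and all 20 were lower in the ungated cells, a difference that the gate itself favours. By the size rule 6.24% of 7088 measured genes were higher and 4.95% lower in ungated than in gated cells. Mmp7 and Muc4 (66.1 against 28.3 CPM) were higher, Gabrp (156.1 against 487.6) and Ephb2 (22.3 against 91.5) were lower, and the other 5 members differed by less than 2-fold. At day 2 Mmp7 and Psca (69.4 against 33.6 CPM) were higher in ungated cells and Sema3c and Ephb2 lower, with 3.53% of all genes higher and 2.83% lower. At day 7 Muc4 was higher and Gabrp, Prom1 and Ephb2 were lower, with 7.53% and 7.12%. From day 2 to day 30 the ungated cells gained 7 of the 9 members by the same rule, all but Prom1 and Ephb2, where 12.3% of genes were higher and 2.76% lower; Psca went from 69.4 to 932.4 CPM and Muc4 from 2.10 to 66.1. The 9 genes therefore did not share 1 place.

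**Figure D1:**
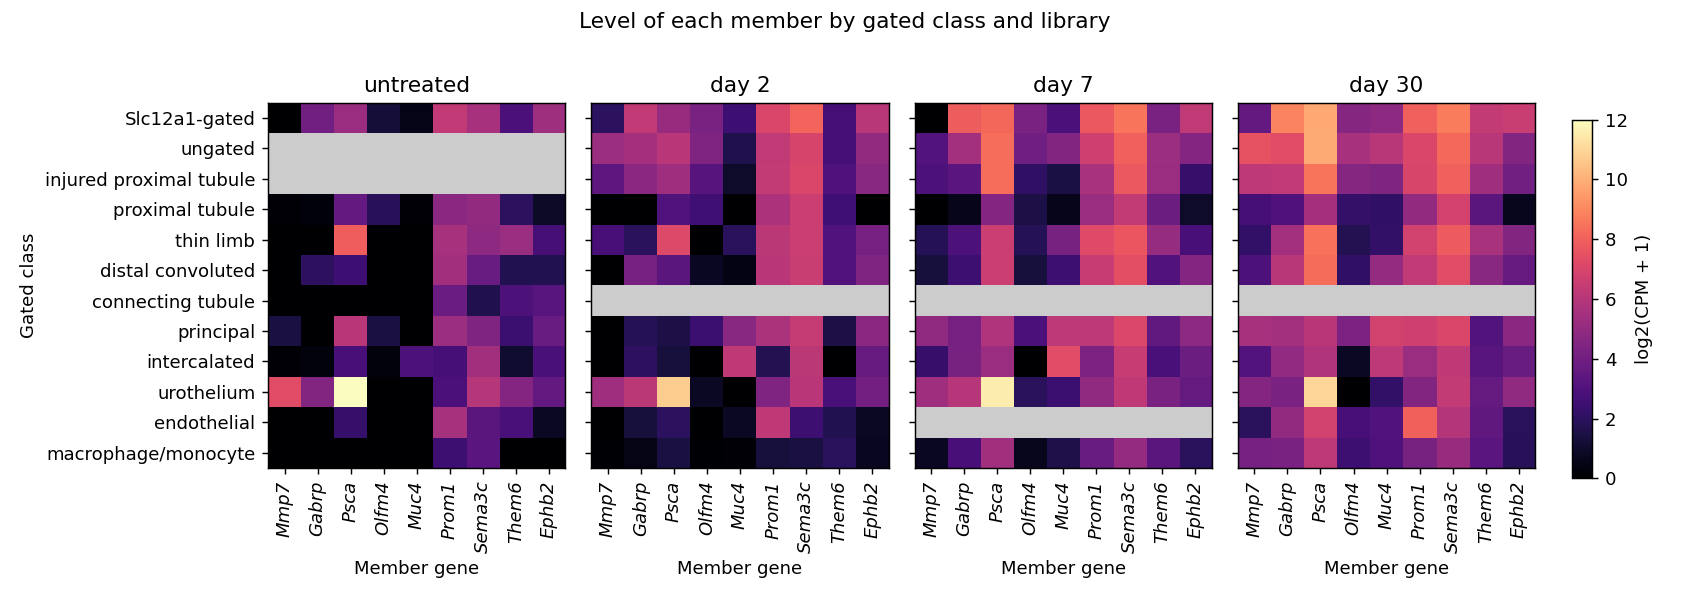
Level of each member, as log2(CPM + 1), in 12 gated classes of the 4 libraries, with grey for classes under 20 cells. At day 30 Mmp7 is brightest in ungated cells (188.9 CPM), Gabrp in Slc12a1-gated cells (487.6 CPM) and Psca in urothelium (2030 CPM), while Olfm4 is no higher than 46.8 CPM.

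The cells were next divided by how much Slc12a1 they held, in cells thinned to 5000 UMIs and among gated and ungated cells only. The first band, with 0 Slc12a1 UMIs, held 469 cells at day 30, and the bands of 1, 2 to 4, 5 to 9, 10 to 19 and 20 or more UMIs held 73, 34, 46, 51 and 126 cells. Mmp7 was at 153.1 CPM in cells with no Slc12a1 UMI, 404.0 with 1, 217.3 with 2 to 4, 23.0 with 5 to 9, 1.93 with 10 to 19 and 5.04 with 20 or more. Among these cells Mmp7 was therefore present in the bands of few Slc12a1 UMIs, not only in that of 0, and nearly gone where Slc12a1 was high. At day 7 Slc12a1 was at 33.4 CPM in macrophage-gated and 38.4 in ungated cells. Whether a single Slc12a1 UMI came from the cell itself was not tested. The same bands took Umod from 253.1 to 7359 CPM.

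Psca, Muc4, Olfm4, Sema3c and Them6 peaked in the middle of this range. Psca was at 761.2 CPM in the band without Slc12a1, 3162 with 2 to 4 UMIs and 350.6 with 20 or more, and the intervals of the 3 bands did not overlap. Muc4 went from 56.6 to 144.0 and down to 10.1 CPM over the same 3 bands. Olfm4 went from 36.9 to 122.2 to 12.96 CPM, and its intervals in the bands with 1 and with 2 to 4 UMIs overlapped. Gabrp reached 597.5 CPM at 2 to 4 UMIs and remained at 442.7 CPM in the band of 20 or more, against 122.8 without Slc12a1. Ephb2, at 19.1, 67.9 and 93.6 CPM in those bands, was high in the Slc12a1-rich cells. Only 34 cells stand behind the peak, 16 of them gated, and the bands, whose limits were set with the data in view, do not order cells in time. With cells of mixed gate added, Mmp7 kept its drop from 196.0 CPM at 1 UMI to 4.49 at 20 or more, with 55.8 CPM at 10 to 19.

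**Figure D2:**
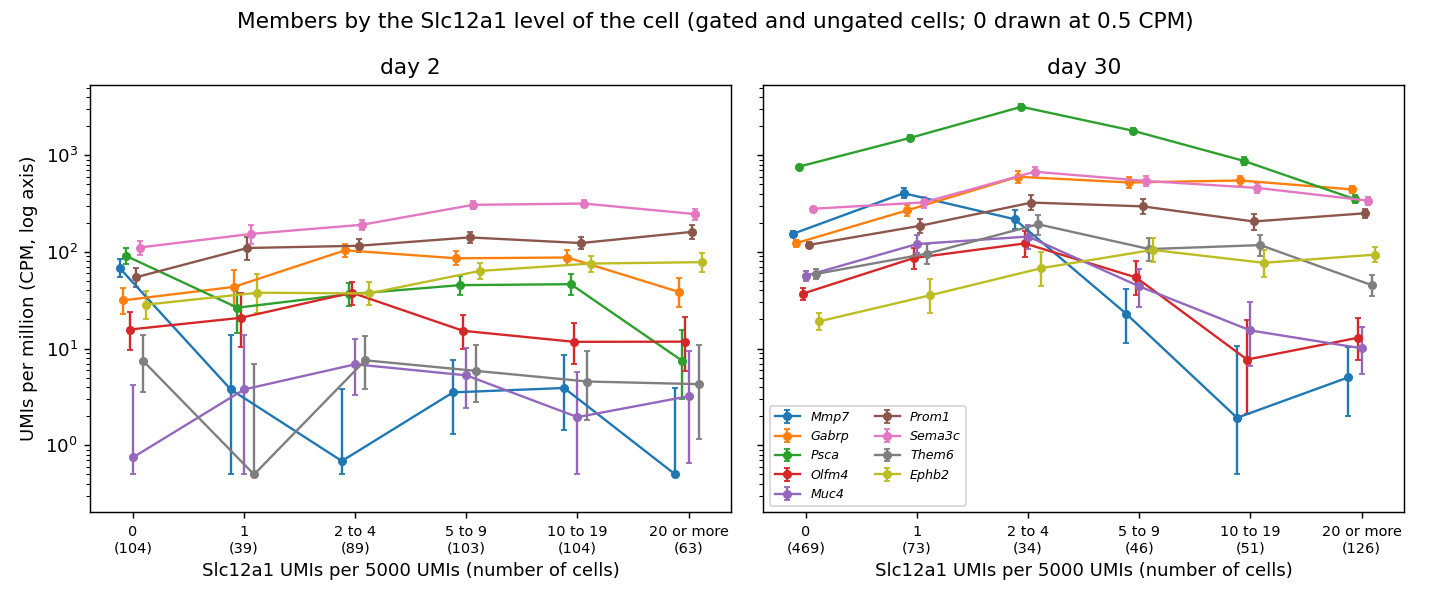
Member levels in CPM (log axis) against the number of Slc12a1 UMIs per 5000 UMIs, for gated and ungated cells at day 2 and day 30, with exact 95% counting intervals and values of 0 drawn at 0.5 CPM. At day 30 Mmp7 falls from 217.3 CPM at 2 to 4 Slc12a1 UMIs to 1.93 CPM at 10 to 19, Psca peaks at 3162 CPM, and Ephb2 lies between 67.9 and 104.8 CPM from 2 Slc12a1 UMIs on.

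Within the ungated cells of day 30, those with an Mmp7 UMI after thinning (70 cells) were set against those without (489 cells). A pair of thick limb claudins were higher in the Mmp7-positive cells: Cldn10 at 287.7 against 99.0 CPM and Cldn19 at 55.7 against 26.3. Slc12a1 (57.2 against 38.8), Umod (357.3 against 290.4), Kcnj1, Tfcp2l1 and Irx1 (23.2 against 43.5) were not called. Lcn2 (lipocalin 2, a secreted injury marker) was at 2364 against 470.8 CPM and clusterin itself at 3561 against 816.9. Of the other members Olfm4 (164.0 against 27.8 CPM), Muc4 (187.2 against 47.8), Gabrp (386.7 against 121.2) and Prom1 (276.9 against 113.3) were higher, and Psca, Sema3c, Them6 and Ephb2 were not called. Fos, Junb, Atf3 and Btg2 were lower, with Fos at 1474 against 3197 CPM. Among 7100 measured genes 1.69% were higher and 2.46% lower in this split. Median depth was 10524 UMIs in the positive and 9043 in the negative cells, and the part of depth in these differences was not tested. The 33 ungated cells with an Olfm4 UMI were likewise higher than the 526 without in Mmp7 (668.0 against 155.7 CPM), Gabrp, Psca, Muc4, Prom1, Them6 and Ephb2, and in Cldn10 (420.2 against 105.7) and Cldn16 (53.9 against 10.8). Slc12a1 (86.2 against 38.6 CPM) and Fxyd2 (962.5 against 469.5) were also higher. The remaining measured thick limb genes were not called, among them Umod (431.0 against 291.2), Cldn19 (53.9 against 28.6), Kcnj1 (21.5 against 16.0) and Irx1 (28.7 against 41.7). In that split 3.23% of genes were higher and 3.65% lower.

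Gabrp and Sema3c were the members already higher in Slc12a1-gated cells at day 2. Gabrp was at 15.3 CPM untreated, then 81.5, 238.6 and 487.6 CPM at days 2, 7 and 30, and no interval overlapped another. The ratios to the untreated level were 5.34 (4.13 to 7.00), 15.6 (12.0 to 20.6) and 32.0 (25.0 to 41.4). After thinning, 1.12% of untreated gated cells held a Gabrp UMI against 11.2%, 27.8% and 46.2% at the 3 later times, and 2.94% of macrophage-gated cells did at day 30.

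Sema3c rose most of the way by day 2. It was at 47.3, 276.7, 376.2 and 426.4 CPM in the 4 libraries, which is 5.84-fold the untreated level at day 2 (5.06 to 6.78) and 9.01-fold at day 30 (7.76 to 10.5). The day 7 and day 30 intervals overlapped. Its share of thinned cells was 9.21%, 38.1%, 37.0% and 47.5%, and the day 30 level was 1.54-fold that of day 2, not called.

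Olfm4 was low in every library. It had 6 UMIs in the untreated gated cells (1.35 CPM), then 18.0, 18.8 and 23.6 CPM, with overlapping intervals at the 3 times after injury. Its day 2 ratio of 13.4 (5.93 to 37.4) was not called, since it passed the 20 CPM minimum at day 30 alone, with a ratio to untreated of 17.5 (7.58 to 49.6). The 10 richest of the 240 gated cells held 73.3% of its 60 UMIs at day 30, and the level was 6.77 CPM without them.

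Psca and Them6 were higher at day 30 than at both earlier points of comparison, untreated and day 2, and neither was called at day 2. Psca was at 36.1 CPM in untreated and 33.6 in day 2 gated cells, then 285.5 at day 7 and 896.3 at day 30, a ratio of 24.8 to untreated (21.1 to 29.3) and 26.7 to day 2 (22.9 to 31.2). The day 2 value depended on the selection of cells: Psca was 0.367-fold the untreated level and called lower when cells of mixed gate were kept, and 8.21-fold and called higher when every library was held to the day 7 UMI floor. The 10 richest cells held 98.1%, 82.7%, 90.4% and 28.8% of its UMIs in the 4 libraries, and without them the levels were 0.691, 6.11, 33.3 and 670.1 CPM. Urothelial markers (6 genes) summed to 8.98, 6.20, 8.60 and 16.1 CPM in the gated cells of the 4 libraries, with 2, 1, 2 and 0 of the 6 at 0, and their part in the Psca level was not tested.

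Them6 was at 6.28, 5.44, 18.8 and 83.6 CPM. The first 2 intervals overlapped, and the day 30 level was 13.3-fold the untreated one (8.95 to 20.5) and 15.4-fold that of day 2 (10.4 to 23.5). Muc4 was at 0.449 CPM in the untreated library (2 UMIs), then 4.69, 6.26 and 28.3 CPM. The day 2 ratio to untreated was 10.5 (2.61 to 91.1), not called because the gene was under 20 CPM. Its ratio of 63.0 at day 30 had an interval of 16.8 to 530.0 because of those 2 UMIs, and at day 30 it was 6.02-fold day 2 (3.77 to 9.91). Both day 30 calls of Muc4 were lost with cells thinned to 2000 UMIs (ratios of 26.0 and 4.17) and with a minimum of 50 CPM. In macrophage-gated cells of that library Muc4 was in 0.905% of thinned cells against 5.00% of gated cells.

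Prom1 and Ephb2 had the smallest ratios to untreated at day 30. Prom1 was at 81.2, 133.3, 213.6 and 252.8 CPM, 1.64-fold at day 2 (not called) and 3.11-fold at day 30 (2.73 to 3.55). Ephb2 was at 39.5, 65.7, 79.0 and 91.5 CPM, and the last 3 intervals overlapped in neighbouring pairs. Its ratio to untreated was 2.00 at day 7 and 2.32 at day 30 (1.90 to 2.83), and the day 30 call was lost when the scaling left out mitochondrial genes (1.94), when it was centred on the median gene (1.77) and with a 20% mitochondrial limit (2.00).

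Counted together, 2 of 5 measured members were higher at day 2, 5 of 5 at day 7 and 8 of 8 at day 30, and none was lower. Over all genes 13.2%, 22.8% and 22.9% of those measured were higher at these times and 10.1%, 7.17% and 7.18% lower. Mmp7 was the member not measured at day 30, and Olfm4, Muc4, Them6 and Mmp7 were not measured at day 2 or day 7. Against day 2, 4 of 8 measured members were higher at day 30 (Gabrp, Psca, Muc4 and Them6) where 7.57% of all genes were higher and 1.86% lower. The members were chosen on this contrast, so nothing is read from their counts. The whole distribution of genes was shifted too: the median log2 ratio to untreated, with 10 CPM added to each level, was 0.14, 0.42 and 0.39 for all measured genes and 0.61, 1.29 and 1.87 for all 9 members, measured or not. With the scaling centred on the median gene, the split of all genes at day 30 moved from 1563 higher and 489 lower to 796 and 801, and 7 members were higher.

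**Figure D3:**
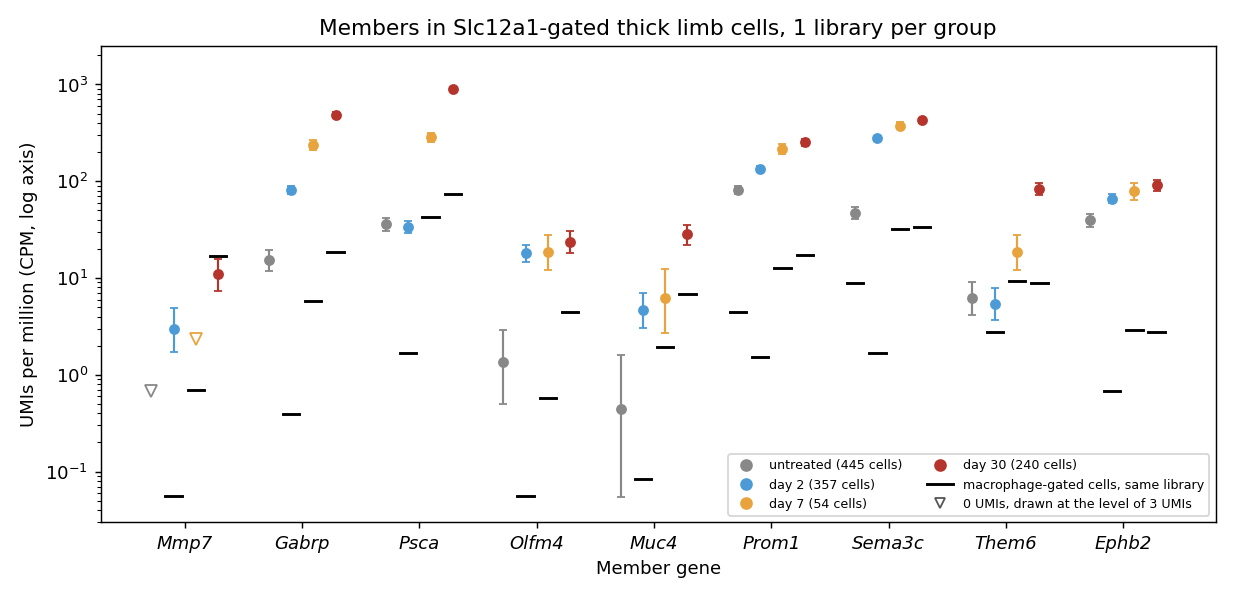
Level of each member in Slc12a1-gated cells of the 4 libraries, in CPM on a log axis with exact 95% counting intervals, and in macrophage-gated cells of the same library (black bars, drawn where there was a UMI). Open triangles stand for 0 UMIs, drawn at the level of 3. Gabrp, Olfm4, Muc4, Prom1, Sema3c and Ephb2 lie above untreated from day 2, and Psca and Them6 from day 7. Of these first rises only Gabrp and Sema3c at day 2 and Psca at day 7 were called. Mmp7 at day 30 (10.99 CPM) lies under its macrophage bar (16.9 CPM).

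Several things moved with these levels in the gated cells. All 10 immediate-early genes of a list for dissociation stress were higher at day 30 (22.9% over all genes), Fos at 2292 CPM against 135.1 in the untreated library. The summed level of 8 macrophage markers in the gated cells was 2.47, 97.1, 216.7 and 317.6 CPM in the 4 libraries, with 3 of the 8 at 0 in the untreated library and none in the others. Summed markers of injured proximal tubule were at 92.2, 207.8, 343.4 and 297.6 CPM, and those of fibroblasts at 0.673, 33.2, 57.1 and 108.8. Those of parietal cells were at 3.81, 27.6, 45.4 and 74.6 CPM. Summed proximal tubule markers (9 genes) went the other way, from 639.7 to 6.95, 31.3 and 52.6 CPM. Those of distal convoluted tubule, connecting tubule and intercalated cells were also lower after injury. Median depth was 7912, 13714, 21702 and 8856 UMIs. At day 7, 2 of the 9 proximal tubule markers were at 0, and none at the other times. The part of these in the member levels was not tested. Of the sort gene itself, Clu (clusterin), the gated cells had 46.9 CPM untreated and 4440, 1514 and 803.6 CPM at days 2, 7 and 30, so the members' order of levels was not that of Clu.

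More members were found per cell as time went on. They were chosen for their level in late Slc12a1 cells, so this rise is part of the choice and nothing is read from it. With cells thinned to 2000 UMIs, 70.3% of untreated gated cells held none of the 9, against 38.7%, 20.4% and 15.4% at days 2, 7 and 30. Cells with 3 or more members were 0.225% (1 of 445), 4.48%, 20.4% and 37.9% of the gated cells. In ungated cells they were 3.57%, 7.43% and 24.2% at the 3 times after injury, and in macrophage-gated cells of day 30 they were 1.92% (34 of 1768), of which 5 cells held 5 or more members.

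At day 30, pairs were seen together more often than the product of their separate shares. In gated cells 24 of 25 pairs with at least 2 expected cells were above 1, with a median of 1.27 and a range from 0.917 (Gabrp with Ephb2) to 1.87. In ungated cells 31 of 33 were, with a median of 1.65, and the highest were Olfm4 with Muc4 at 3.91 and Mmp7 with Olfm4 at 3.15. Mmp7 with Ephb2, at 0.499, and Mmp7 with Them6 were the pairs below 1. In macrophage-gated cells the 7 such pairs had a median of 5.31, so co-detection of this kind was also seen in cells of a class that should lack the genes. The members were chosen together for late Slc12a1 cells, and no value for other gene pairs is given here. Nothing is read from the counts of pairs above 1. At day 7, with 54 gated cells, the median was 0.928.

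**Figure D4:**
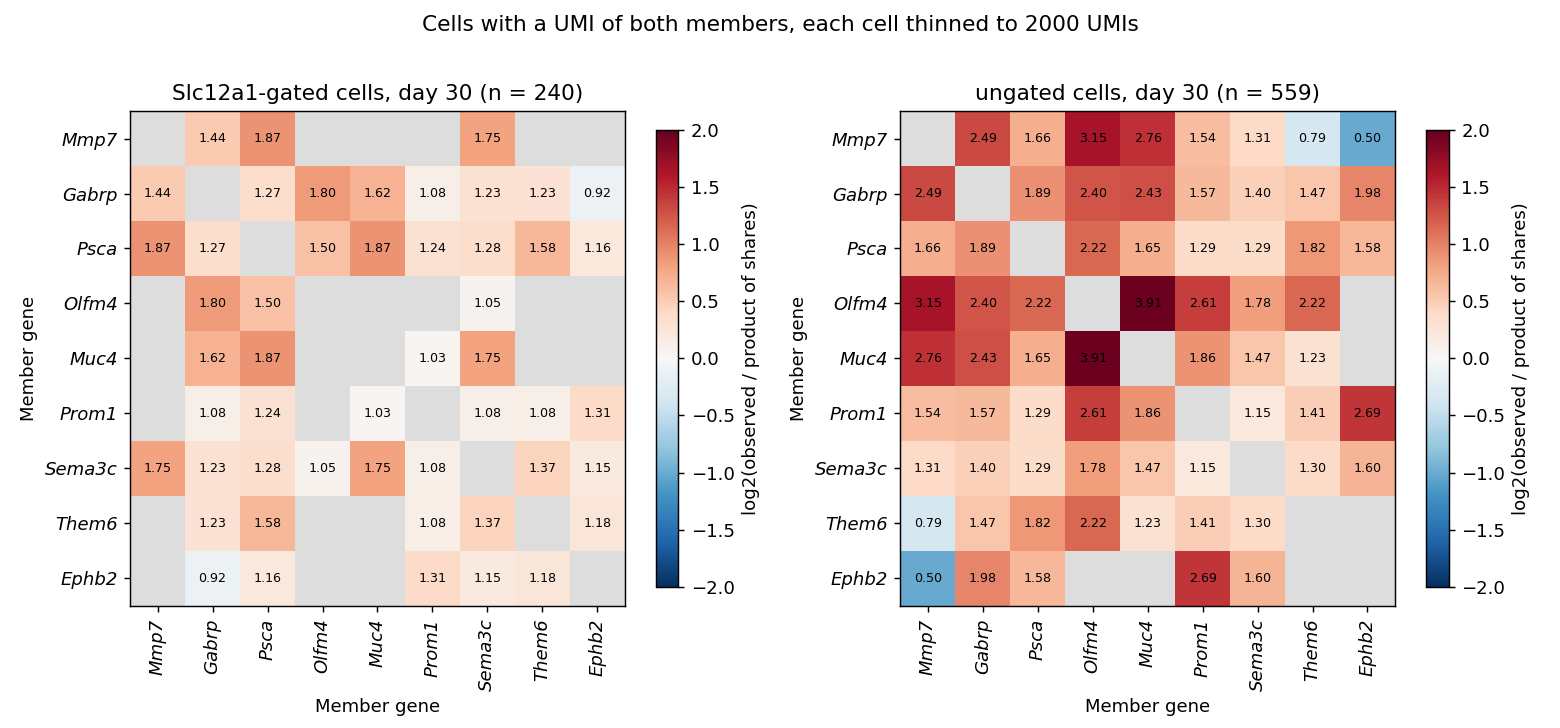
Number of day 30 cells with a UMI of both members, divided by the number expected from the product of their separate shares, in 240 Slc12a1-gated and 559 ungated cells thinned to 2000 UMIs. Printed numbers are the ratio, colours its log2, and grey marks pairs with under 2 expected cells. Ratios in the gated cells lie between 0.92 and 1.87, and the highest ratio in the ungated cells is that of Olfm4 with Muc4 (3.91).

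Gated cells of day 30 with and without Gabrp or Psca differed in thick limb genes. The 111 Gabrp-positive cells had 81.3 CPM of Egf (pro-epidermal growth factor, made by mature thick limb and distal tubule) against 959.2 in the 129 negative cells, and lower Bsnd and Tmem207. Psca-positive cells (107) likewise had 85.1 CPM of Egf against 958.6, with lower Wfdc15b (232.9 against 642.8), Ppp1r1a, Casr and Pappa2 and higher Krt19 (331.1 against 90.8), Cd44 and S100a6. Dkk2, a secreted Wnt modulator, was higher in both kinds of positive cell, at 26.4 against 7.39 CPM for Gabrp and 31.4 against 2.78 for Psca. The shares of all measured genes called higher and lower were 1.18% and 1.38% in the Gabrp split and 1.77% and 1.90% in the Psca split. Positive cells were of nearly the same depth as negative ones in the Gabrp split (medians of 8806 and 9017 UMIs) and deeper in the Psca split (9354 and 8676).

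Outside the thick limb the members parted further. Psca was highest in urothelium in the untreated library (4617 CPM), at day 2 (1707) and at day 30 (2030), and it was in all 155 untreated urothelial cells. The 31 urothelial cells of day 7, too few for a ranking, had 3008 CPM. In that library 50.1% of the Psca UMIs were in the 741 cells gated by injured proximal tubule markers. Muc4 at day 30 was highest in principal cells (111.4 CPM, with 0 UMIs in the untreated library) and next in intercalated cells (73.3 against 6.71 untreated), the acid-base cells of the collecting duct. Ungated cells were close to the intercalated level at 66.1 CPM, so that second place is not settled. Prom1 at day 30 was at 260.3 CPM in endothelial cells and 252.8 in gated thick limb cells, whose intervals overlapped. Gabrp, Sema3c, Them6 and Ephb2 had their top level of day 30 in the Slc12a1-gated cells, and for Them6 the interval there overlapped that of ungated cells (66.7 CPM). Of the 9 members 7 were also called higher than untreated in another of the classes compared at day 30, Olfm4 and Them6 being the exceptions. The share of all genes called in those classes is not given here, so nothing is read from that count. Psca was 70.0-fold higher in distal convoluted tubule (31.6 to 193.1), 29.0-fold in endothelial (11.9 to 91.9), 9.92-fold in intercalated and 4.18-fold in proximal tubule cells. Its day 30 levels were 56.9 CPM in intercalated and 45.2 in proximal tubule cells. Macrophage-gated cells, used above as background, had 0 Psca UMIs untreated and 42.3 CPM at day 7. The part of background RNA in the rises of these other classes, for Psca or any member, was not tested. Gabrp was higher in distal convoluted tubule (65.3 against 3.06 CPM), thin limb, principal, intercalated and endothelial cells. Sema3c was higher in proximal tubule (117.2 against 30.9 CPM), thin limb, distal convoluted tubule, principal and endothelial cells, and Prom1 in thin limb, principal, intercalated, urothelial and endothelial cells. Ephb2 was higher in thin limb, principal and urothelial cells, Mmp7 in principal cells (46.8 against 1.65 CPM) and Muc4 in principal and intercalated cells. In urothelium Mmp7 (22.9 against 154.5 CPM), Psca and Them6 were called lower at day 30.

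Of the partners that each member is known to work with, lists were drawn up beside the members and are given for day 30 against untreated in gated cells, where 22.9% of all measured genes were higher and 7.18% lower. Among metalloproteases and their tissue inhibitors 4 of 22 were measured and all 4 were higher: Timp3 (935.5 against 438.5 CPM), Timp2 (163.7 against 19.7), Mmp14 (59.3 against 6.28) and Mmp12 (83.2 against 0 UMIs). Mmp12 was at 2243 CPM in macrophage-gated cells of that library. For most genes of this and the following lists no macrophage-gated level is given. The part of macrophage RNA in their rises was not tested. Of 12 matrilysin substrates and docking partners 8 were measured, 5 higher and 1 lower, among them Sdc1 (syndecan-1, 119.7 against 11.2 CPM), Hbegf (278.4 against 20.6), Itgb4 and Cd44 higher, while E-cadherin (Cdh1) was at 186.1 against 142.9, not called.

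The other GABA-A receptor subunits were too low to be measured in these cells. Of 24 subunit and GABA-handling genes 2 were measured (Abat and Gabarap), 0 higher and 1 lower, the degrading enzyme Abat at 8.24 against 33.2 CPM. Of the 26 counted Ly6 relatives of Psca 5 were measured and 4 were higher (22.9% over all genes), with Ly6e at 1372 against 106.4 CPM and Lynx1 at 59.7 against 15.0. Within 150000 bases on each side of Psca lie 19 counted genes, Psca and Them6 included. Psca, Them6 and Lynx1 were the 3 of them that could be measured at day 30, and all 3 were higher. Psca and Them6 were chosen for their late level, so Lynx1 alone adds to that choice and nothing is read about the stretch. Ly6d, in the same stretch, was at 5647 CPM in untreated urothelium and 13.3 in day 30 gated cells, below the minimum for a call.

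For the surface and guidance molecules, to be read against 22.9% of all genes higher and 7.18% lower, 4 of 6 measured mucins and partners were higher and none lower, with Muc1 at 105.6 against 24.0 CPM, Lgals3 at 689.8 against 221.0 and Erbb3 at 51.4 against 22.7. Of 7 measured genes listed with Prom1, 2 were higher (Arl13b and Cd24a) and 1 lower, its relative Prom2 at 8.24 against 33.2 CPM. Of 8 measured semaphorins and receptors 6 were higher and none lower, including the Sema3c receptors Nrp1 (293.7 against 97.6), Nrp2 (21.6 against 0.898), Plxna1 and Plxna2. Nrp2 and Plxna1 were higher still in macrophage-gated cells (162.5 and 43.9 CPM). Of 6 measured Eph receptors and ephrins 3 were higher and none lower, the ligands Efnb1 (38.1 against 13.2), Efnb2 (26.3 against 2.02) and Efna1. In the thioesterase list 0 of 5 were higher and 1 lower (Acot13, 49.5 against 152.4 CPM), and the 1 measured olfactomedin relative, Adgrl2, was higher at 79.7 against 36.6 CPM.

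Wnt targets and intestinal stem cell genes, the setting in which Mmp7, Olfm4 and Ephb2 are best known, had 7 of 26 measured, 5 higher and 1 lower, against 22.9% and 7.18% of all genes. Axin2, a feedback target of the pathway, was at 0.449 CPM untreated, 0.563 on day 2 and 0 UMIs on day 7, then 26.7 CPM on day 30, and Sox9 was at 51.0 against 3.59, while Ccnd1 was lower at 146.8 against 404.8 CPM. All 12 measured genes of a list of ETS and AP-1 factors, to which Klf5, Klf6 and Foxc1 had been added, were higher, among them Fosl2 (45.5 against 2.47), Fosb (424.0 against 23.8) and the Krüppel-like factor Klf5 (38.1 against 2.24). This list shares Fos, Fosb, Jun and Junb with the immediate-early list. Of 24 measured injury and progenitor-type genes 21 were higher and 0 lower, Vcam1 at 89.1 against 0.673 CPM. Of 21 thick limb identity genes 0 were higher and 9 lower, led by Tmem207, Wfdc15b (452.7 against 3547), Egf (560.6 against 3730) and Ppp1r1a, and 2 of 3 measured macula densa genes, Nos1 and Robo2, were lower.

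The genes whose levels most resembled the mean of the members were ranked over 46 profiles, each 1 class in 1 library, by Pearson's r on log2 levels, as a description, since profiles of 1 library share its depth and free RNA. Sytl2 (r = 0.812), Dsg2 (0.809) and Wnt10a (0.797) came first, followed by Naaladl2, Cldn3, Map3k1, Gprc5a, Gcc2, Itpr3 and Srd5a1 (0.755). In gated cells Cldn3 was at 32.1, 180.8, 299.6 and 391.0 CPM in the 4 libraries and Srd5a1 at 10.3, 70.0, 135.3 and 186.9. Of the members themselves Gabrp followed the mean of all 9 most closely (0.921) and Muc4 least (0.602), with Mmp7 next to last at 0.669. That mean includes the gene itself, which raises these values, so they are not to be set beside those of the genes outside the members.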

How the data were processed

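Single-cell 3′ libraries of 4 sorted cell suspensions were analysed from the deposited matrices of UMI counts per gene and barcode, which the authors made with Cell Ranger 7.0.1 on mm10, per the submitters' processing notes; per the file headers the matrices carry software version 3.0.1. The counts are whole numbers and not normalized. Each deposited library ends at its own lowest UMI total. Cells with at least 500 UMIs, 300 genes and at most 50% mitochondrial UMIs were kept, and doublets called by Scrublet (scanpy 1.11.5; expected rate 0.8% per 1000 barcodes, at most 10%) were removed; the call found 1 doublet in the untreated library and so did not work there. Classes were gated on 19 fixed marker sets: a cell needed 3 UMIs and 500 CPM of a set, and went to the set with the highest level relative to its 100 highest cells if that was 2 times the runner-up, otherwise to a mixed class. These limits and the Slc12a1 bands were set after seeing the data. The 9 members and the 17 gene lists were chosen with earlier results of these data known. Counts were summed per class and library. With 1 library per group no test and no p-value is given: levels have exact Poisson, shares exact Clopper-Pearson and ratios exact conditional 95% intervals. Genes were named by a fixed rule: all members, up to 4 genes of each list with the largest called change at day 30, the genes that gate or define the cells, Clu, and the 10 genes most like the members' mean. The genes named from the cell splits, and others such as Nrp1, Cdh1 and Ly6d, were chosen after their values were seen. The size rule was tried on simulated Poisson counts alone. These hold no uneven spread of molecules between cells, such as that of Mmp7, so the trial does not cover it. Gene positions are from GENCODE on mm10, promoter windows from RefSeq on GRCm38.p6.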

Additional observations from a re-analysis of the deposited data

Results flagged for a closer look

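Psca and Them6 moved in opposite directions in urothelium and in thick limb cells. In urothelium-gated cells Psca was at 2030 CPM at day 30 against 4617 in the untreated library, a ratio of 0.440 (0.420 to 0.461), while in Slc12a1-gated cells it was 24.8-fold higher. Them6 was at 11.5 against 23.0 CPM in urothelium, a ratio of 0.498 (0.245 to 0.951), against 13.3-fold higher in the gated cells. Each group had 1 library and the difference between the classes was not tested. The 10 richest of the 94 urothelial cells held 53.1% of the day 30 Psca UMIs there.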

How the results depend on the processing

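No paired analysis was possible because each group has 1 library, and for the same reason no replicate could be left out. No called member ratio changed direction under the alternatives run. At day 2 a pair of uncalled ratios crossed 1: Psca (0.930) became 0.367 (mixed cells kept), 0.378 (20% mitochondrial limit) or 8.21 (day 7 UMI floor), and Them6 (0.867) ran from 0.588 to 1.24. Of 489 member ratios recomputed with UMIs in both libraries, 19 lost and 20 gained their call; Ephb2 lost its day 7 call most often. The Mmp7 level in day 30 gated cells ran from 0 to 33.8 CPM, above the 16.9 CPM of macrophage-gated cells with the doubled gate (27.3), mixed cells kept (27.0) and the 4-gene gate (33.8), and its ungated to gated ratio from 4.29 to 38.1, always higher; the alternatives for that ratio, the halved gate and the bands with mixed cells were chosen after seeing the data. Members higher at day 2 went from 2 to 4 with the day 7 UMI floor, with 30% of free RNA subtracted (Olfm4 and Psca added, Psca at 22.5 CPM against 0 UMIs left in the untreated library) and with no CPM minimum; at day 7 from 5 to 3 with median scaling and with a 3-fold rule, and to 7 with no minimum. They ran from 6 to 9 at day 30 and from 3 to 6 for day 30 against day 2. Counts over all genes moved more. Scaling without mitochondrial genes gave 969 lower at day 2, 852 higher and 758 lower at day 7, and 1039 higher at day 30. Median scaling gave 692 higher and 791 lower at day 7, 796 and 801 at day 30, and 290 higher at day 30 against day 2. A minimum of 50 CPM gave 417 higher and 375 lower at day 2, 756 and 302 at day 7, 780 and 305 at day 30, and 218 and 66 at day 30 against day 2. No minimum gave 1801 and 1144 at day 2, 755 lower at day 7, 2661 and 800 at day 30, and 1245 and 317 against day 2. A 3-fold rule gave 368 and 316, 540 and 260, 597 and 240, and 155 and 51. Subtracting 30% of free RNA gave 937 higher at day 30 against day 2, and thinning to 2000 UMIs gave 741 higher at day 7. Depth limits Muc4, Olfm4 and Mmp7, whose 0 to 2 untreated UMIs (6 for Olfm4) set wide intervals, and the 54 gated cells of day 7.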
